A study of Homo sapiens with 6 samples.

Results

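The genes described here are the mitochondrial carriers of the SLC25 family after knockdown of ZCCHC24 in MDA-MB-435, an established human cancer line. Members were the genes of the deposited table whose symbol was SLC25A followed by a number, 48 of 57150 genes; SLC25A10 had a second row, listed at 0 FPKM in every library, and its row with the higher mean was kept. Apart from that row, the membership rule used symbols only and no measured value. The family itself was chosen with earlier results of these data known. The study held 3 libraries with ZCCHC24 knockdown and 3 control libraries of the same line. Both groups are named by a ZCCHC24 genotype label, and the sources used here do not say how the knockdown was made or what the controls received. The labels do not tell whether a group's libraries are separate cultures; the p-values rest on library-to-library spread, which may be technical. Levels are FPKM, read pairs scaled by transcript length and library size. Means are given ± SD over n = 3 libraries. Each fold change is the knockdown mean less the control mean of log2(FPKM + 1) ± the standard error of the fit, a scale that understates the change of weakly expressed genes, and adjusted p-values are from limma's moderated test with Benjamini-Hochberg correction over the 13343 genes that averaged 1 FPKM or more.

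ZCCHC24, a CCHC-type zinc finger protein that the series title places in the study of the splicing machinery, had 1.54, 1.69 and 1.81 FPKM in the knockdown libraries, against 12.7, 12.3 and 13.2 FPKM in the control libraries, a fold change of -2.36 ± 0.08, adjusted p = 1.5e-07. No read totals accompanied the FPKM values. Judged from the steps between low FPKM values, relative depth differed by up to 1.26 times, with control 2 shallowest and knockdown 3 deepest. Of 7 melanocyte markers all 7 were expressed, at a summed 1297 to 1361 FPKM in the knockdown and 1824 to 1932 FPKM in the control libraries. Of these, 6 fell and TYR did not pass, where 35.4% of all tested genes were called lower and 37% higher. Of 10 breast epithelial markers 5 passed the expression filter, and all 10 summed to 140.3 to 149 FPKM in the knockdown and 98.3 to 115 FPKM in the control libraries, and KRT5 and ELF5 were listed at 0 in all 6. KRT18 (0.36 ± 0.04, adjusted p = 0.00011) and KRT8 (0.69 ± 0.09, adjusted p = 0.00016), which share a listed locus, rose and made up most of that sum, while CDH1 (-0.31 ± 0.13, adjusted p = 0.066), EPCAM (-0.15 ± 0.19, adjusted p = 0.49) and KRT19 (-0.09 ± 0.13, adjusted p = 0.55) did not pass. The part of these markers in the results on the carriers was not tested. The labels call the tissue breast; as background, the line has since been assigned a melanoma origin.

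Carriers of this family are small proteins of the mitochondrial inner membrane, that exchange or co-transport metabolites between cytosol and matrix. They are encoded in the nucleus, made in the cytosol and inserted by the carrier import pathway. Their substrates set the family's classes: adenine nucleotides and phosphate for ATP synthesis, di- and tricarboxylates for the citrate and malate shuttles, amino acids and acylcarnitine, and cofactors, nucleotides, iron and glutathione.

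The family spanned a wide range of levels, and a few carriers held most of it. Of the 48 members, 4 averaged 100 FPKM or more across the 6 libraries, 29 were at 10 to 100 FPKM, 6 at 1 to 10 FPKM, and 9 were below 1 FPKM and were not tested. The ADP/ATP carrier SLC25A5 stood first, at 703, 701 and 698 FPKM in the knockdown libraries, against 1006, 947 and 964 FPKM in the control libraries. It was followed by the phosphate carrier SLC25A3 and by SLC25A6, another ADP/ATP carrier. These 3 together made up 60.1 ± 0.163% of the family's summed FPKM in the knockdown and 59.8 ± 0.907% in the control libraries, shares that overlapped between groups (exact two-sided permutation test, p = 0.7). The oxoglutarate/malate carrier SLC25A11 came next.

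The summed level of all 48 members was lower after knockdown, at 2316, 2280.3 and 2294 FPKM in the knockdown libraries, against 2876, 2788 and 2821 FPKM in the control libraries. The means were 2297 ± 18.2 FPKM in the knockdown and 2829 ± 44.6 FPKM in the control libraries. The groups did not overlap, and an exact two-sided permutation test returned p = 0.1, the lowest value possible with 3 libraries a group. Without SLC25A3 and the ADP/ATP carriers the sum was 858 ± 7.51 FPKM in the knockdown and 1049 ± 8.38 FPKM in the control libraries, again without overlap. In bulk RNA, fewer cells with a transcript and less of it per cell cannot be told apart.

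**Figure D1:**
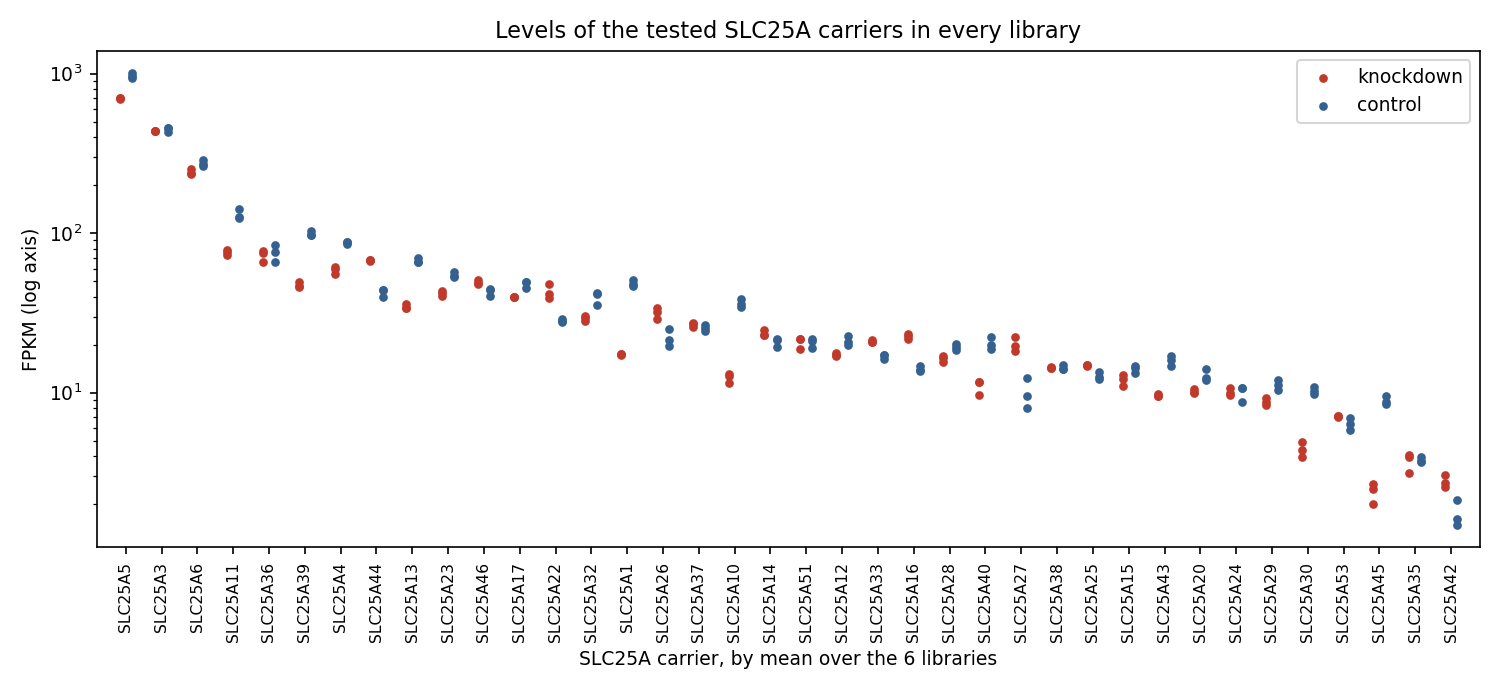
FPKM on a log axis of 38 of the 39 tested SLC25A carriers in each of the 3 knockdown (left points, red) and 3 control libraries (right points, blue), ordered by the mean over the 6 libraries. SLC25A5, SLC25A3 and SLC25A6 stand above the rest, and SLC25A1, SLC25A10, SLC25A30 and SLC25A45 show wide gaps with the knockdown libraries below.

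Among the 39 carriers tested, 21 fell, 10 rose and 8 did not pass. Over all tested genes 72.4% were called, 35.4% as lower and 37% as higher, against 79.5%, 53.8% and 25.6% of the carriers. The share called was thus close to that of the table. The median change of the tested carriers was -0.22, beside 0.01 for all tested genes, and the median absolute change was 0.37, beside 0.41. In 32 of 39 carriers (82.1%) the 3 knockdown libraries lay on one side of the 3 control libraries, against 75.9% of all tested genes. Changes of at least 0.5 were called for 15 carriers, 10 lower and 5 higher, or 38.5%, against 40.4% of all tested genes, of which 20.6% were lower and 19.8% higher. No tested carrier had a mean below 1 FPKM in either group.

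**Figure D2:**
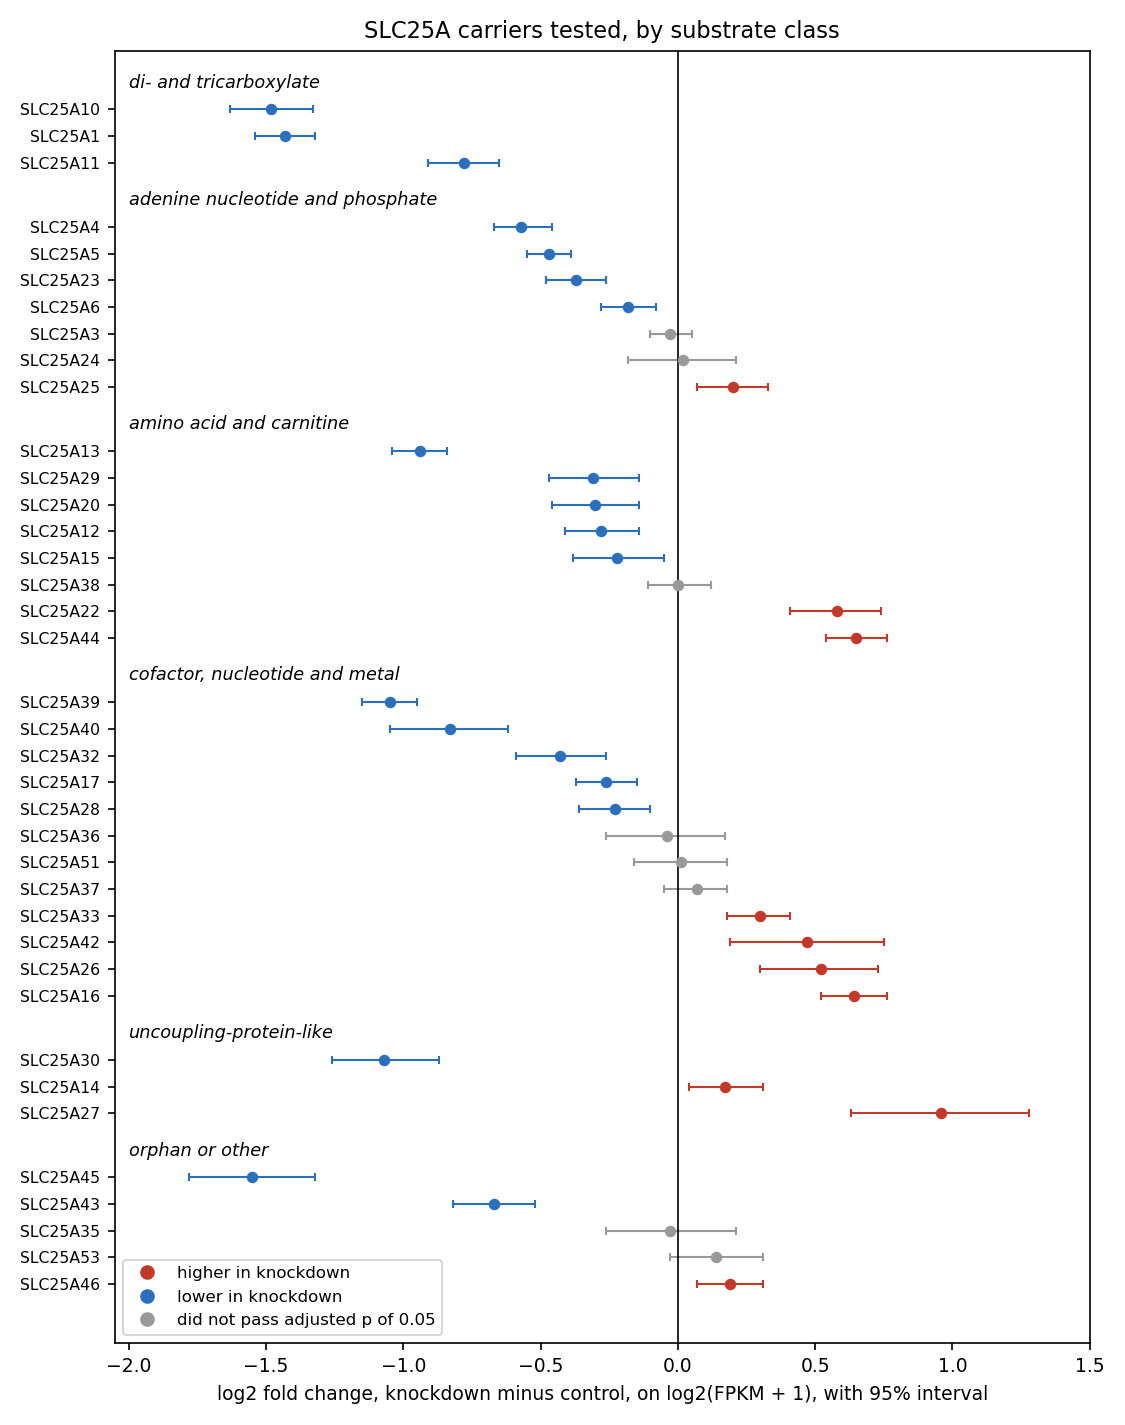
Fold change (log2, knockdown minus control) with its 95% interval for 38 of the 39 tested SLC25A carriers, grouped by substrate class; red marks carriers higher and blue carriers lower in knockdown at an adjusted p below 0.05, grey those that did not pass. The di- and tricarboxylate carriers lie between -1.48 and -0.78, while the other classes hold carriers on both sides of 0 or close to it.

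The 3 tested di- and tricarboxylate carriers all fell, with a class median of -1.43, where 35.4% of all tested genes were called lower. SLC25A1 (ENSG00000100075; hg19 chromosome 22, 19163094 to 19166343), the citrate carrier that exports citrate for fatty acid and sterol synthesis, had 17.2, 17.5 and 17.4 FPKM in the knockdown libraries, against 50.8, 48.1 and 46.5 FPKM in the control libraries. The knockdown libraries lay close to each other and far below every control library, at 35.9% of the control mean, a fold change of -1.43 ± 0.05, adjusted p = 1.7e-07. SLC25A10 (ENSG00000183048; hg19 chromosome 17, 79670386 to 79688042), the dicarboxylate carrier that exchanges malate or succinate for phosphate, had 12.7, 11.5 and 13.04 FPKM in the knockdown libraries, against 38.5, 36.2 and 34.5 FPKM in the control libraries. It was at 34.1% of the control mean, -1.48 ± 0.06, adjusted p = 4.6e-07, again with separate groups. SLC25A11 (ENSG00000108528; hg19 chromosome 17, 4840424 to 4848517), which exchanges malate for oxoglutarate in the malate-aspartate shuttle, had 75.9, 73.3 and 78.7 FPKM in the knockdown libraries, against 142, 127 and 124 FPKM in the control libraries. Its groups did not overlap, and its fold change of -0.78 ± 0.06, adjusted p = 6.7e-06 was the smallest of the class. The listed loci of SLC25A10 and SLC25A11 also hold MRPL12 and RNF167, which changed by -0.63 ± 0.05 (adjusted p = 1.3e-05) and -0.70 ± 0.07 (adjusted p = 3e-05). The fourth member of the class, the oxodicarboxylate carrier SLC25A21, was listed at 0 in every library.

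The promoter windows of SLC25A1 and SLC25A11, which fell together, and of SLC25A44, the clearest rise among amino acid carriers, are shown for comparison. They run from 250 bases before to 50 bases after the RefSeq start in GRCh38.p14, 5′ to 3′ on the gene's strand. They cover chr22:19178687-19178986, minus strand, for SLC25A1, chr17:4939997-4940296, minus strand, for SLC25A11, and chr1:156193854-156194153, plus strand, for SLC25A44. Capitals mark matches on either strand to 5 motifs: the E-box CACGTG, the sterol regulatory element TCACNCCAC, the CCAAT box CCAAT, the GC box GGGCGG and the ATF4 composite element TGATGNAA, where N is any base.
SLC25A1: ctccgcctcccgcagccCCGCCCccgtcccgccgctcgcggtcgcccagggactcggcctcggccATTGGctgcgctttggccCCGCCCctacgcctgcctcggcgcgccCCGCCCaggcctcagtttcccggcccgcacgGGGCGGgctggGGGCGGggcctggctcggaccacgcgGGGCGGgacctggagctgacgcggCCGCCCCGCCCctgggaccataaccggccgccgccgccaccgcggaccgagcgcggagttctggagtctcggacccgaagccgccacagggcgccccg
SLC25A11: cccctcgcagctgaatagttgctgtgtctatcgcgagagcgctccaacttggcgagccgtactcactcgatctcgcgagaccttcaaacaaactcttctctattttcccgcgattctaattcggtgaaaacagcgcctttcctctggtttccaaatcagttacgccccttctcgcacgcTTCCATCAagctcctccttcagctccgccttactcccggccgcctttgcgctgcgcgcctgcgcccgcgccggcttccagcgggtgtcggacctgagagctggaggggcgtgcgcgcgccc
SLC25A44: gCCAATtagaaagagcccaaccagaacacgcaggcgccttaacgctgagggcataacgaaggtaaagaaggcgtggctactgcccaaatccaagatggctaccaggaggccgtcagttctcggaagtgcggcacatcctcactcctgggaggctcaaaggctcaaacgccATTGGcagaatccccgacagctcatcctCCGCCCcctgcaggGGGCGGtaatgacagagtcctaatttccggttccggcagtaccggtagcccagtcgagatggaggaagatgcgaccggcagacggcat
The SLC25A1 window held 8 GC box matches, some overlapping, and 1 CCAAT box. That of SLC25A44 held 2 GC boxes and 2 CCAAT boxes, the same motif types. The SLC25A11 window held neither, and had 1 ATF4 composite match. The window of SLC25A10, which fell most in that class and is not shown, held a GC box and a CCAAT box. Windows were found for 40 members, 33 of them tested. For the members, repeated windows of a symbol were dropped. The set of all windows was not reduced in this way, and neither set was filtered by expression. A GC box was present in 70% of these 40 windows and in 45% of all 35116 windows, a CCAAT box in 47.5% and 34.6%, an E-box in 17.5% and 7.26%, the sterol element in 2.5% and 1.13%, and the ATF4 element in 2.5% and 3.62%. By direction, a GC box was in 16 of 18 windows of carriers that fell and in 5 of 9 of those that rose. A CCAAT box was in 9 of 18 and 5 of 9, and an E-box in 1 of 18 and 2 of 9. The sterol and ATF4 elements were each in 1 of 18 and 0 of 9. A link between motifs and direction was not tested. A match is a stretch of letters, not a shown binding site.

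**Figure D3:**
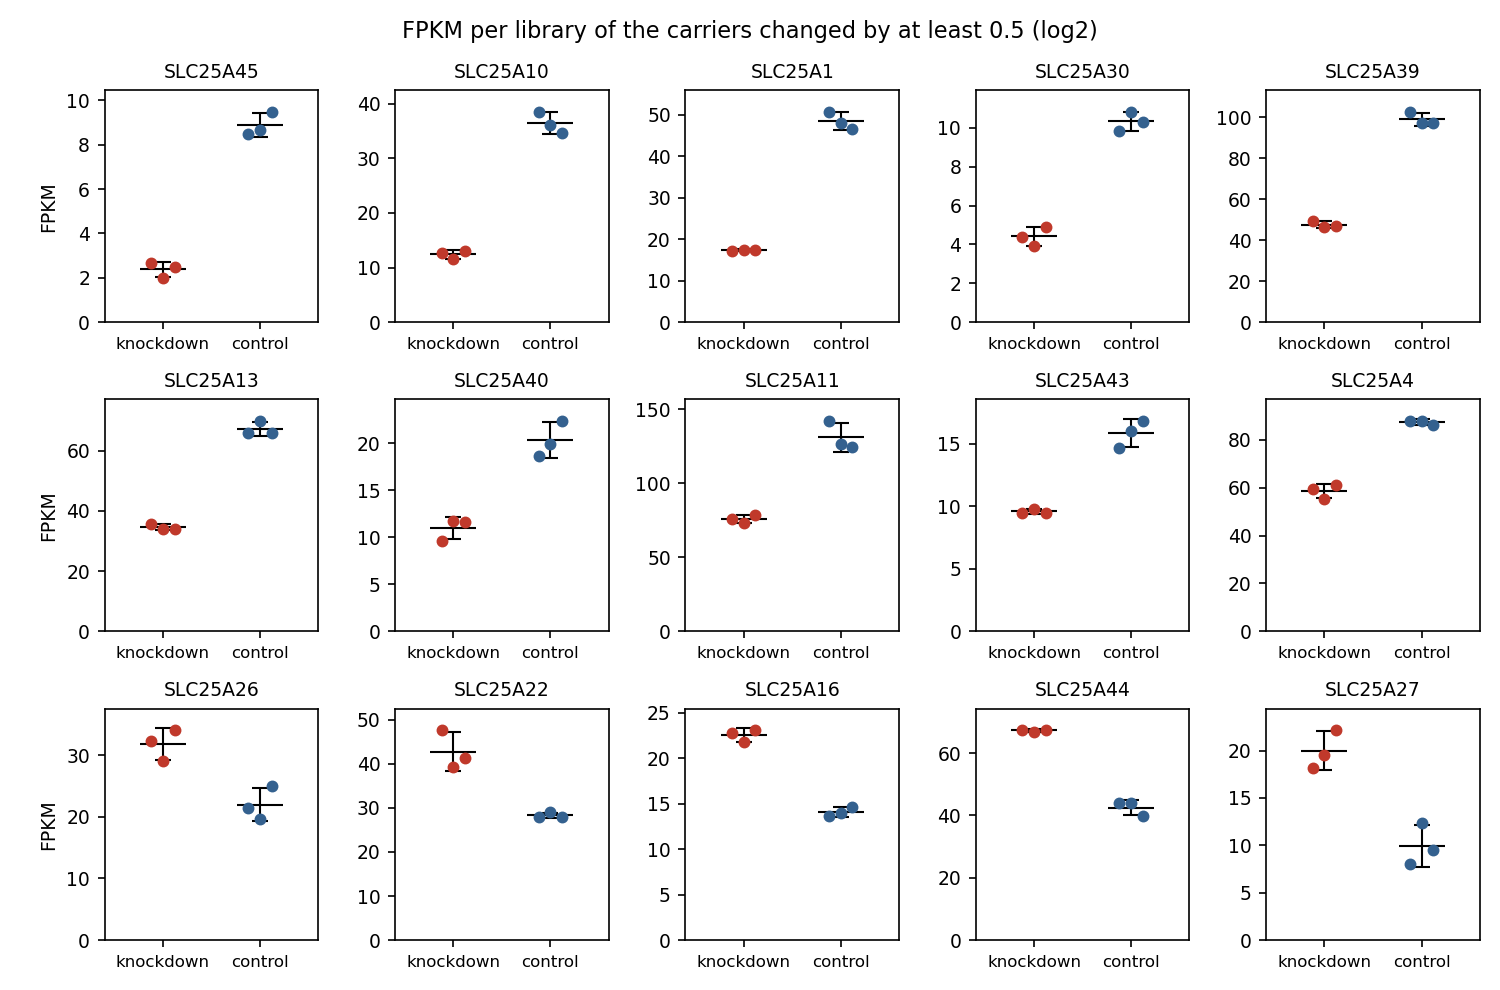
FPKM in each library (points) with the mean and SD (bars, n = 3) of the 15 carriers called with a change of at least 0.5 on the log2 scale, knockdown at left and control at right, ordered from the largest fall (SLC25A45) to the largest rise (SLC25A27). Each axis starts at 0. The groups are separate in all 15 panels, which picking called changes of this size made likely. They are separate in 75.9% of all tested genes.

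The carriers that supply ATP synthesis were divided: ADP/ATP carriers fell, and the phosphate carrier did not pass. SLC25A3 (ENSG00000075415; hg19 chromosome 12, 98987368 to 98995946), which brings phosphate into the matrix, had 437, 439 and 438 FPKM in the knockdown libraries, against 454, 430.4 and 454 FPKM in the control libraries. The groups overlapped, and the 95% interval of its fold change, -0.10 to 0.05, bounds any change at this precision. SLC25A5 (ENSG00000005022; hg19 chromosome X, 118599996 to 118605282), the ADP/ATP carrier known as the main form of dividing cells, fell to 72.1% of the control mean, -0.47 ± 0.03, adjusted p = 5.7e-06; its values per library were given above. SLC25A4 (ENSG00000151729; hg19 chromosome 4, 186064394 to 186068434), the form known from heart and muscle, had 59.4, 55.5 and 61.3 FPKM in the knockdown libraries, against 88.02, 88.1 and 86.1 FPKM in the control libraries. It fell to 67.2% of the control mean, -0.57 ± 0.05, adjusted p = 1.1e-05. SLC25A6 (ENSG00000169100; hg19 chromosome X, 1505044 to 1511617) had 251, 234 and 239 FPKM in the knockdown libraries, against 286, 265 and 272 FPKM in the control libraries. Its groups were separate by a narrow gap, with a fold change of -0.18 ± 0.04, adjusted p = 0.0053. SLC25A31, the form known from testis, was at 0.0208 FPKM in control 1 and at 0 in the other libraries.

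Because FPKM is scaled by length, the ADP/ATP carriers could be added. Their sum was 1001 ± 11.7 FPKM in the knockdown and 1334 ± 41.5 FPKM in the control libraries. SLC25A5 made up 70.03 ± 0.746% in the knockdown and 72.9 ± 0.0442% in the control libraries, and SLC25A6 24.1 ± 0.627% in the knockdown and 20.6 ± 0.189% in the control libraries. Every knockdown library had a higher SLC25A6 share and a lower SLC25A5 share than every control library (exact two-sided permutation test, p = 0.1 for each, the smallest possible). These paralogues are similar in sequence and have many processed pseudogenes. The sources used here do not say how shared reads were assigned, so their separate levels are uncertain. Of 36 pseudogene rows of the family, 32 were at 0 in every library and none exceeded 0.0909 FPKM.

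Of the calcium-regulated ATP-Mg/phosphate carriers, which adjust the adenine nucleotide content of the matrix, SLC25A23 fell, SLC25A25 rose and SLC25A24 did not pass. SLC25A23 had 43.6, 40.4 and 42.1 FPKM in the knockdown libraries, against 56.9, 54.03 and 52.9 FPKM in the control libraries, -0.37 ± 0.05, adjusted p = 0.00017. SLC25A25 had 14.97, 14.9 and 14.6 FPKM in the knockdown libraries, against 13.6, 12.2 and 12.6 FPKM in the control libraries, 0.20 ± 0.06, adjusted p = 0.012. SLC25A24 overlapped between groups, with a 95% interval of -0.18 to 0.21. SLC25A23 made up 62.6 ± 0.733% in the knockdown and 70.4 ± 1.23% in the control libraries of the summed FPKM of this subgroup, and SLC25A25 22.1 ± 0.615% in the knockdown and 16.5 ± 0.588% in the control libraries, both without overlap (exact two-sided permutation test, p = 0.1 each). SLC25A41, which lacks the calcium-binding part, was at 0.0974 to 0.256 FPKM over the 6 libraries.

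**Figure D4:**
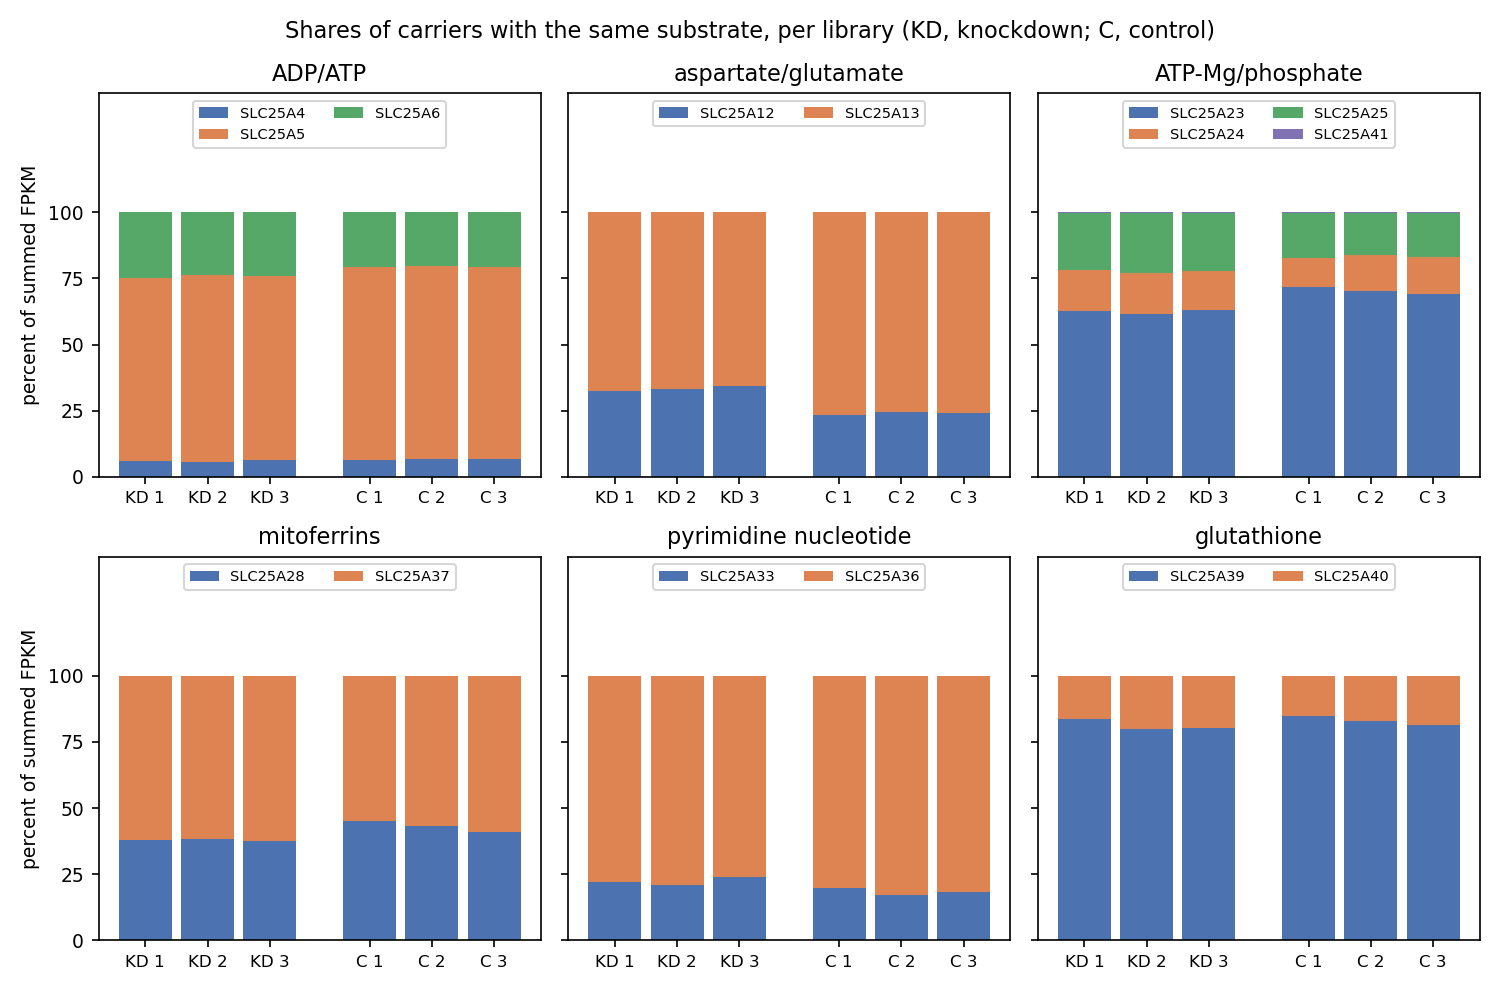
Percent of the summed FPKM that each carrier made up within 6 sets of carriers with the same or a related substrate, 1 stacked bar per library, with knockdown libraries 1 to 3 at left and control libraries 1 to 3 at right. SLC25A12 makes up 33.3% of its pair in the knockdown and 23.9% in the control libraries, and the glutathione pair overlaps between groups.

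Among amino acid and acylcarnitine carriers, 5 fell, 2 rose and 1 did not pass, where 35.4% of all tested genes were called lower and 37% higher. SLC25A13 (ENSG00000004864; hg19 chromosome 7, 95749531 to 95951459), citrin, an aspartate/glutamate carrier of the malate-aspartate shuttle, had 35.8, 33.9 and 33.98 FPKM in the knockdown libraries, against 65.8, 70.01 and 65.99 FPKM in the control libraries. It was at 51.4% of the control mean, -0.94 ± 0.04, adjusted p = 7.1e-07. Its paralogue SLC25A12, aralar, had 17.2, 16.96 and 17.6 FPKM in the knockdown libraries, against 19.96, 22.7 and 20.9 FPKM in the control libraries, a change of -0.28 ± 0.06, adjusted p = 0.0028. The share of SLC25A12 in the pair was 33.3 ± 0.806% in the knockdown and 23.9 ± 0.624% in the control libraries (exact two-sided permutation test, p = 0.1, the smallest possible), and the pair's sum was 51.8 ± 1.11 FPKM in the knockdown and 88.4 ± 3.77 FPKM in the control libraries.

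The rises of this class were the glutamate and the branched-chain amino acid carrier. SLC25A44 (ENSG00000160785; hg19 chromosome 1, 156163879 to 156182587), which brings branched-chain amino acids into the matrix, had 67.4, 66.9 and 67.6 FPKM in the knockdown libraries, against 43.9, 43.98 and 39.7 FPKM in the control libraries. Knockdown libraries were nearly equal and all above the controls, 0.65 ± 0.05, adjusted p = 7.5e-06. SLC25A22 (ENSG00000177542; hg19 chromosome 11, 790474 to 798316), which imports glutamate with a proton, had 47.8, 39.3 and 41.3 FPKM in the knockdown libraries, against 27.9, 28.97 and 27.97 FPKM in the control libraries. Its rise was 0.58 ± 0.07, adjusted p = 0.00013, with knockdown 1 above the other knockdown libraries. The second glutamate carrier, SLC25A18, was at 0.0367 FPKM in control 1 and 0 elsewhere. Smaller falls were those of SLC25A29, a carrier of basic amino acids (-0.31 ± 0.07, adjusted p = 0.0045), SLC25A20, the carnitine/acylcarnitine carrier of fatty acid oxidation (-0.30 ± 0.07, adjusted p = 0.0046), and SLC25A15, the ornithine carrier of the urea cycle (-0.22 ± 0.07, adjusted p = 0.025). The call of SLC25A15 was lost in 6 of the 12 refits, with adjusted p of 0.052 to 0.085 there. SLC25A38, which brings glycine into the matrix for haem synthesis, overlapped between groups, with a 95% interval of -0.11 to 0.12.

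Both glutathione carriers fell, where 35.4% of all tested genes were called lower. SLC25A39 (ENSG00000013306; hg19 chromosome 17, 42396992 to 42402238), which imports glutathione into the matrix, had 49.5, 46.2 and 46.8 FPKM in the knockdown libraries, against 103, 97.3 and 97.5 FPKM in the control libraries. It was at 47.9% of the control mean, -1.05 ± 0.04, adjusted p = 4e-07, the largest fall among the carriers of cofactors, nucleotides and metals. Its paralogue SLC25A40 (ENSG00000075303; hg19 chromosome 7, 87462882 to 87538856) had 9.62, 11.7 and 11.6 FPKM in the knockdown libraries, against 18.6, 19.97 and 22.4 FPKM in the control libraries, -0.83 ± 0.09, adjusted p = 7.2e-05. The pair's sum was 58.5 ± 0.553 FPKM in the knockdown and 119.6 ± 2.15 FPKM in the control libraries, while the shares of the paralogues overlapped between groups (exact two-sided permutation test, p = 0.3). The listed locus of SLC25A40 also holds DBF4, which changed by -0.27 ± 0.10 (adjusted p = 0.034).

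The carriers linked to coenzyme A were divided, and the carrier of the methyl donor rose. SLC25A16 (ENSG00000122912; hg19 chromosome 10, 70242520 to 70287231), linked to coenzyme A transport, had 22.8, 21.7 and 23.2 FPKM in the knockdown libraries, against 13.7, 13.95 and 14.6 FPKM in the control libraries. It was at 160.2% of the control mean, 0.64 ± 0.05, adjusted p = 1.1e-05. SLC25A42, the coenzyme A carrier, was weakly expressed, at 2.73, 3.03 and 2.58 FPKM in the knockdown libraries, against 2.12, 1.61 and 1.49 FPKM in the control libraries, 0.47 ± 0.12, adjusted p = 0.0076. SLC25A26 (ENSG00000144741; hg19 chromosome 3, 66119284 to 66551687), which imports S-adenosylmethionine, had 32.2, 29.00 and 34.2 FPKM in the knockdown libraries, against 21.4, 19.6 and 24.9 FPKM in the control libraries. Its rise was 0.52 ± 0.09, adjusted p = 0.0012. Its listed locus also holds LRIG1, which moved the other way, by -0.89 ± 0.10 (adjusted p = 7.6e-05). SLC25A17, the peroxisomal carrier of coenzyme A, FAD and NAD, fell, with a change of -0.26 ± 0.05, adjusted p = 0.0012.

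Among the other cofactor carriers, SLC25A32, a folate and FAD carrier, had 28.1, 29.2 and 30.5 FPKM in the knockdown libraries, against 35.6, 41.6 and 42.03 FPKM in the control libraries, -0.43 ± 0.07, adjusted p = 0.0007. It fell with separate groups. The listed locus of SLC25A32 also holds DCAF13, which rose by 0.48 ± 0.05 (adjusted p = 2.5e-05). The NAD carrier SLC25A51 overlapped between groups, with a 95% interval of -0.16 to 0.18.

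For pyrimidine nucleotides, SLC25A33 rose and SLC25A36 did not pass. SLC25A33 had 21.3, 20.7 and 20.6 FPKM in the knockdown libraries, against 16.2, 17.1 and 17.2 FPKM in the control libraries, 0.30 ± 0.05, adjusted p = 0.00073. SLC25A36 had the highest mean of this class over the 6 libraries, at 74.8, 77.8 and 65.9 FPKM in the knockdown libraries, against 65.6, 83.8 and 76.6 FPKM in the control libraries. SLC25A39 was close to it in that mean and higher in every control library. The groups of SLC25A36 overlapped, with a 95% interval of -0.26 to 0.17. For iron, mitoferrin 2 (SLC25A28) fell, with a change of -0.23 ± 0.06, adjusted p = 0.0065, and mitoferrin 1 (SLC25A37) did not pass, with a 95% interval of -0.05 to 0.18. SLC25A37 made up 62.1 ± 0.3604% in the knockdown and 56.9 ± 2.03% in the control libraries of the mitoferrin sum (exact two-sided permutation test, p = 0.1, the smallest possible), and the sum itself was 43.05 ± 1.45 FPKM in the knockdown and 44.8 ± 0.198 FPKM in the control libraries.

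The carriers related to uncoupling proteins moved in both directions. SLC25A27 (ENSG00000153291; hg19 chromosome 6, 46620677 to 46703430), uncoupling protein 4, had 18.2, 19.6 and 22.2 FPKM in the knockdown libraries, against 7.99, 12.3 and 9.46 FPKM in the control libraries. This was the largest rise among the tested carriers, 0.96 ± 0.14, adjusted p = 0.00035, and its control libraries varied more than most, with control 2 above the others. SLC25A30 (ENSG00000174032; hg19 chromosome 13, 45967450 to 45994506), an uncoupling-protein-like carrier, had 4.37, 3.94 and 4.92 FPKM in the knockdown libraries, against 9.86, 10.8 and 10.3 FPKM in the control libraries, a change of -1.07 ± 0.08, adjusted p = 9.7e-06. SLC25A14, uncoupling protein 5, was the most abundant of the class, at 23.1, 24.5 and 22.98 FPKM in the knockdown libraries, against 19.4, 21.7 and 21.2 FPKM in the control libraries. It rose by 0.17 ± 0.06, adjusted p = 0.025. The change was 0.14 without knockdown 2 (adjusted p = 0.091) and 0.13 without control 1 (adjusted p = 0.064), where the call was lost.

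Carriers long listed without an assigned substrate included the largest fall of the family. SLC25A45 (ENSG00000162241; hg19 chromosome 11, 65134908 to 65151172) had 2.67, 1.99 and 2.49 FPKM in the knockdown libraries, against 8.46, 8.68 and 9.497 FPKM in the control libraries. It was at 26.8% of the control mean, -1.55 ± 0.10, adjusted p = 3e-06. SLC25A43 (ENSG00000077713; hg19 chromosome X, 118533022 to 118588441) had 9.49, 9.79 and 9.497 FPKM in the knockdown libraries, against 14.7, 16.04 and 16.9 FPKM in the control libraries, -0.67 ± 0.06, adjusted p = 2.8e-05. SLC25A35 and SLC25A53 did not pass, with 95% intervals of -0.26 to 0.21 and -0.03 to 0.31. SLC25A46, an outer-membrane member of the family with a role in mitochondrial shape, was the most abundant of this group, at 48.5, 50.9 and 47.9 FPKM in the knockdown libraries, against 40.3, 43.9 and 44.5 FPKM in the control libraries, 0.19 ± 0.05, adjusted p = 0.0089.

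The 9 members below 1 FPKM were SLC25A2, SLC25A18, SLC25A21, SLC25A31, SLC25A34, SLC25A41, SLC25A47, SLC25A48 and SLC25A52. SLC25A21 was at 0 in every library, and the highest value of the others was 0.606 FPKM, of SLC25A34 in a control library. They include forms known from testis (SLC25A31) and liver (SLC25A47). SLC25A52, a paralogue of the NAD carrier, had 0.0518, 0.0298 and 0.0886 FPKM in the knockdown libraries and was listed at 0 in the 3 control libraries. These values lie close to 0 and were not tested, and a pseudogene row of the family reached 0.0909 FPKM in a library. The antisense gene SLC25A5-AS1, which shares the listed locus of SLC25A5, rose while SLC25A5 fell, with 3.66, 3.23 and 3.71 FPKM in the knockdown libraries, against 2.06, 2.104 and 2.26 FPKM in the control libraries, 0.53 ± 0.09, adjusted p = 0.001. The library kit marks strand, but the sources used here do not say whether counting used it, so reads of this pair may not be told apart. In all, 14 tested carriers have a listed locus that also holds another tested gene, among them 4 of the 15 with a change of at least 0.5.

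Genes that work with the carriers were read in the same fit. Of 75 tested genes in 8 lists, 42 fell and 20 rose, and the other 13 missed the threshold; the median over all 75 was -0.18. Thus 82.7% were called, 56% as lower and 26.7% as higher, beside 72.4%, 35.4% and 37% of all tested genes, the shares against which each list's count is to be read. Of the carrier-fold relatives named otherwise, UCP2, MTCH2 and MTCH1 all fell. UCP2, uncoupling protein 2, had 5.14, 5.86 and 4.93 FPKM in the knockdown libraries, against 25.4, 24.9 and 22.3 FPKM in the control libraries, -2.0 ± 0.08, adjusted p = 3e-07, a larger fall than that of any SLC25A member. MTCH2 changed by -0.37 ± 0.04 and MTCH1 by -0.15 ± 0.04 (adjusted p = 8.5e-05 and 0.007). UCP1 was at 0 in every library, and UCP3 was below the filter. In the carrier import pathway 5 of 10 genes fell and 4 rose. The rises spanned 0.15 to 0.35. The genes named next are those with the largest called changes, all of them falls. TOMM70A, the outer-membrane receptor for carrier precursors, had 40.6, 41.8 and 41.8 FPKM in the knockdown libraries, against 89.5, 98.6 and 99.1 FPKM in the control libraries, -1.19 ± 0.05, adjusted p = 3.8e-07. TIMM9, a chaperone of the intermembrane space that escorts them, had 14.03, 14.9 and 14.4 FPKM in the knockdown libraries, against 33.3, 34.4 and 36.4 FPKM in the control libraries, -1.21 ± 0.05, adjusted p = 4.6e-07. Its partner TIMM10 fell to 68.8% of the control mean (-0.54 ± 0.04, adjusted p = 1.3e-05).

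Enzymes on either side of the carboxylate and shuttle carriers mostly fell, 6 of 7 with 1 rise, of 0.36 ± 0.05 (adjusted p = 0.00034). ACLY, which splits exported citrate, averaged 34.98 ± 1.17 FPKM in the knockdown and 73.9 ± 1.32 FPKM in the control libraries, -1.06 ± 0.04, adjusted p = 3.2e-07. MDH1, the cytosolic malate dehydrogenase, averaged 153 ± 5.92 FPKM in the knockdown and 289 ± 1.298 FPKM in the control libraries, -0.91 ± 0.04, adjusted p = 3.8e-07. GOT2, the matrix aspartate aminotransferase, fell, with a change of -0.47 ± 0.05, adjusted p = 3e-05. Of the 4 tested enzymes of the carnitine system, all passed as lower, 3 of them with a call that held in the refits that left out a library: CPT1A (-0.62 ± 0.05, adjusted p = 7.9e-06), CRAT (-0.46 ± 0.07, adjusted p = 0.00047) and CPT2 (-0.49 ± 0.06, adjusted p = 0.00018). CPT1B, the fourth, had 4.199, 4.07 and 4.25 FPKM in the knockdown libraries, against 6.33, 5.76 and 4.34 FPKM in the control libraries. Its groups were separated by less than the spread of the control libraries, -0.31 ± 0.12, adjusted p = 0.043. The call of CPT1B was lost in 9 of the 11 refits that gave it a value, with adjusted p of 0.052 to 0.14 there; it was not tested with the 5 FPKM minimum.

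Of 14 iron and haem partners, 9 fell (64.3%, beside 35.4% of all tested genes) and 4 rose (28.6%, beside 37%); their median was -0.47. ALAS1, the first enzyme of haem synthesis, which uses glycine and succinyl-CoA in the matrix, averaged 112 ± 0.546 FPKM in the knockdown and 48.5 ± 2.21 FPKM in the control libraries, 1.19 ± 0.04, adjusted p = 2.2e-07. FECH, which inserts iron in the last step, averaged 7.24 ± 0.256 FPKM in the knockdown and 19.4 ± 1.44 FPKM in the control libraries, -1.31 ± 0.07, adjusted p = 1e-06. Of 18 ATP synthase genes, 9 fell and 4 rose, with a median of -0.11; 2 rose without knockdown 1 or without knockdown 2, and with median scaling 6 fell and 5 rose. ATP5G1, a gene of the c-ring, and C14orf2 fell, with changes of -0.83 ± 0.05, adjusted p = 3.3e-06 and -0.71 ± 0.04, adjusted p = 1.4e-06, and ATP5F1, of the stalk, rose by 0.37 ± 0.03, adjusted p = 1.8e-05. Of 16 other inner-membrane transporters, 6 rose and 5 fell, with SFXN4 at -1.11 ± 0.07, adjusted p = 2e-06, MCUR1, a regulator of the calcium uniporter, at -1.05 ± 0.05, adjusted p = 7.2e-07, and SFXN3 at 0.85 ± 0.06, adjusted p = 6.1e-06. Of the outer-membrane channels, VDAC1 fell (-0.33 ± 0.03, adjusted p = 3.7e-05), VDAC2 rose (0.18 ± 0.04, adjusted p = 0.0045) and VDAC3 did not pass.

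**Figure D5:**
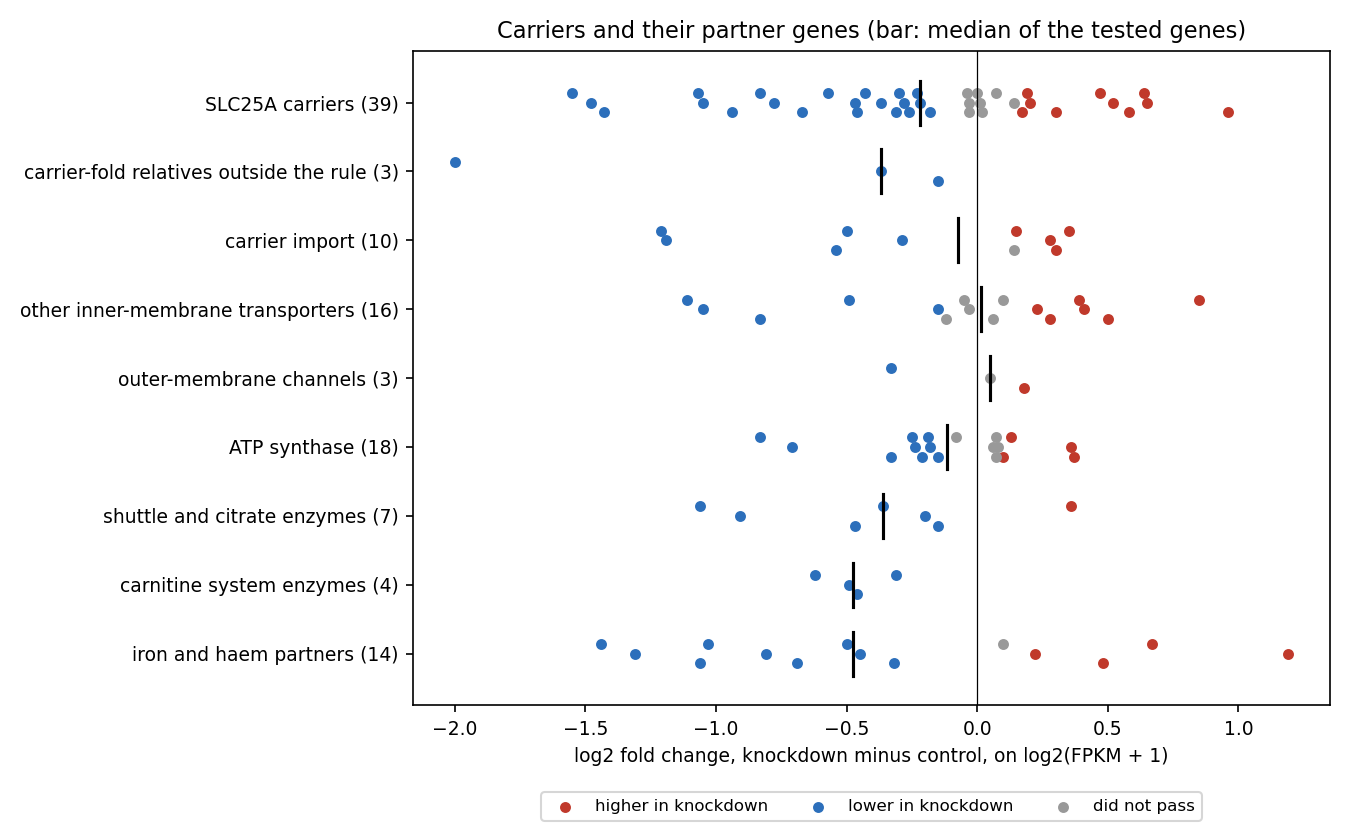
Fold change (log2, knockdown minus control) of each tested gene, with the 39 SLC25A carriers in the top row and 8 lists of partner genes under it (tested number in brackets). Points are genes, red higher, blue lower and grey not passing, spread vertically only for legibility; the black bar is the median, -0.22 for the carriers and -0.18 over all partner genes.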

How the data were processed

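Expression was measured by poly(A) RNA sequencing of total RNA in 3 ZCCHC24 knockdown and 3 control libraries, prepared with a stranded kit and read as read pairs, per the labels' protocols. The authors deposited 1 table of FPKM values per gene with hg19 loci; the submitters' processing notes name TopHat 1.4.1, Cuffdiff 2.2.0 and hg19, with no roles given. The sources used here give neither read totals nor the strand setting of the counting, so the depth is unknown and no counting intervals were computed. A row with a blank gene identifier was left out (1 row). The 13343 genes averaging 1 FPKM or more were tested on log2(FPKM + 1) with limma 3.58.1 in R 4.3.3 (moderated test with a mean trend, two-sided, all 6 libraries, no covariates), adjusted by Benjamini-Hochberg (threshold 0.05), and the code was tested on simulated data. Shares and sums used exact two-sided permutation tests. Tables were handled with Python 3.11.15, pandas 2.3.3 and numpy 2.4.6. Promoter windows came from RefSeq (GRCh38.p14) and were used for letters only, apart from the hg19 loci. Alternatives were a pseudocount of 0.1, no filter on low values, a 5 FPKM minimum, scaling to equal medians, fitting the replicate number as a block, weighting libraries by quality (arrayWeights) and dropping each library in turn. The members and lists were chosen with earlier results of these data known. The naming rule took every carrier by class. Values per library were given for called carriers that changed by at least 0.5. They were also given for the ADP/ATP and phosphate carriers and the most abundant carrier of each class. In each partner list the rule took up to 3 called genes with the largest absolute change, so the named genes do not stand for their list. Library values of other carriers, promoters, antisense and overlapping genes, CPT1B, VDAC3, UCP1 and UCP3 were added after their values were seen. Some items are not reported here by name or sequence; the counts and medians include them.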

Additional observations from a re-analysis of the deposited data

How the results depend on the processing

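Across the other 12 fits (pseudocount of 0.1, no filter, mean of at least 5 FPKM, median scaling, replicate block, sample quality weights and each library left out), 29 to 31 of the 31 carrier calls kept their sign and call, except that with a mean of at least 5 FPKM 30 of 31 were tested and all 30 were kept; none was called in the opposite direction. Without 1 library, 9 to 10 carriers were higher and 20 to 21 lower, and over all genes 4568 to 4787 were higher and 4470 to 4568 lower. Without a filter, which adds 8 weakly expressed carriers, the median change of the carriers was -0.04, against -0.22 with it. Some carriers that had not passed were near 0 and changed sign, in part only within rounding. Under median scaling SLC25A3 and SLC25A35 were at 0.00, and with sample quality weights SLC25A24 was at -0.02 and SLC25A38 at 0.00. Without 1 library, SLC25A24 ranged over -0.07 to 0.06, SLC25A38 over -0.01 to 0.03, SLC25A36 over -0.14 to 0.03, SLC25A51 over -0.04 to 0.08 and SLC25A35 over -0.08 to 0.07; the cause was not tested. The replicate numbers did not pair the libraries (correlations of deviations from the group means of -0.03, -0.07 and 0.02); with the replicate block 10 carriers were higher and 21 lower, as without it, and ZCCHC24 changed by -2.36 (adjusted p = 1.2e-05). Library depth is unknown, so weakly expressed carriers are limited most.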
